A study of Caenorhabditis elegans with 4 samples.

Results

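RNA polymerase II was mapped by chromatin immunoprecipitation and sequencing (ChIP-seq) in larvae of Caenorhabditis elegans, and the regions described here are the peaks called on the X chromosome. They are all rows of the authors' combined peak list whose chromosome is X, whatever their width or q value. There were 610 of them among 6507 listed peaks, or 9.37%. The worms were hermaphrodites of N2, the wild-type laboratory strain, at the third larval stage, L3, grown at 20 °C, and all samples share this genotype, stage and temperature. The antibody was 8WG16, a mouse monoclonal that recognises the heptapeptide repeat at the C-terminus of the largest polymerase subunit. The samples were 2 ChIP libraries and 2 input libraries of unprecipitated chromatin, 1 of each per replicate, from whole larvae, so the signal mixes all tissues of the animal. The 1 list analysed joins the replicates and holds neither read counts nor values per replicate. Depth is therefore unknown here, the spread between replicates could not be computed, and each error below is either counting error or the spread between blocks of a chromosome. Peaks on II, III, IV and V served as references, each taken alone. Chromosome I was not used as one. It held 3028 peaks, or 46.5% of the list, while the references held between 584 (V) and 851 (IV). The cause was not tested. Whether the list treats all chromosomes alike could not be checked, and the density ratios below and the 9.37% depend on it.

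RNA polymerase II transcribes all protein-coding genes, and a region enriched for it in ChIP usually covers the promoter or the body of a transcribed gene. In C. elegans hermaphrodites both X chromosomes are bound in somatic cells by the dosage compensation complex, a condensin-like complex that lowers transcription of X so that its output matches that of the single X of males. In much of the germ line X is kept largely silent, and at L3 the germ line is small but growing. The X chromosome also differs from the autosomes in recombining more evenly along its length and in having a less marked division into centre and arms. This is background, and no peak below is assigned to a gene.

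Peaks were sparser on X than on III, and X lay between the denser II, III and IV and the sparser V. In blocks of 1 Mb, X averaged 34.9 ± 12.2 peaks per Mb (SD over 18 blocks). The references averaged 44.9 ± 21.2 on II (15 blocks), 53.5 ± 19.2 on III (14 blocks), 48.6 ± 19.6 on IV (17 blocks) and 28.1 ± 16.2 on V (21 blocks). The ratio of densities was tested with a quasi-Poisson model over blocks, in which the spread between blocks sets the error, and p-values were adjusted over all 20 comparisons made (Benjamini-Hochberg). X had 0.648 times the density of III (95% interval 0.5004 to 0.839, adjusted p = 0.0259, n = 18 and 14 blocks), and this was the comparison of density that passed 0.05. Against IV the ratio was 0.711 (0.545 to 0.927, adjusted p = 0.0888), against II 0.771 (0.573 to 1.04, adjusted p = 0.187) and against V 1.23 (0.906 to 1.68, adjusted p = 0.293), with n = 18 blocks on X. The call against III was lost without the sparse first 2 blocks of X (0.701, adjusted p = 0.0523, n = 16 blocks of X) and with 1 dispersion shared by the 5 chromosomes (adjusted p = 0.0540). Neighbouring blocks resemble each other, which the model ignores, so its intervals can be too narrow. Each model also gave both chromosomes of a pair the same dispersion, although counts per block spread less on X. The ratio of variance to mean was 3.97 on X and lay between 6.99 (III) and 10.03 (II) on the references. What this does to the intervals and p-values was not tested.

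Against II, III and IV the ratios lay closer to 1 for wide peaks and for covered sequence, while against V that of wide peaks lay further from 1. Peaks of at least 1 kb numbered 246 on X, or 13.9 per Mb. Set against each reference, their density ratio was 0.918 for II (0.692 to 1.22, adjusted p = 0.550), 0.861 for III (0.652 to 1.14, adjusted p = 0.376), 0.770 for IV (0.593 to 0.999, adjusted p = 0.163) and 1.33 for V (0.990 to 1.80, adjusted p = 0.163), again with n = 18 blocks on X. In covered base pairs the ratio was 0.861 for II, 0.756 for III, 0.788 for IV and 1.22 for V, with adjusted p from 0.163 to 0.337. None of these 8 ratios passed 0.05 in the block model, although those of wide peaks against IV and of covered sequence against III had unadjusted p-values of 0.0489 and 0.0386. The lowest interval bound of these 8 ratios was 0.580, for covered sequence against III. That comparison thus still allows X to have 0.580 times the covered sequence per Mb of III. Against V the lower bounds were 0.990 for wide peaks and 0.918 for covered sequence. All of the peaks on X together covered 821 kb, 4.66% of the span up to the last peak.

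**Figure D1:**
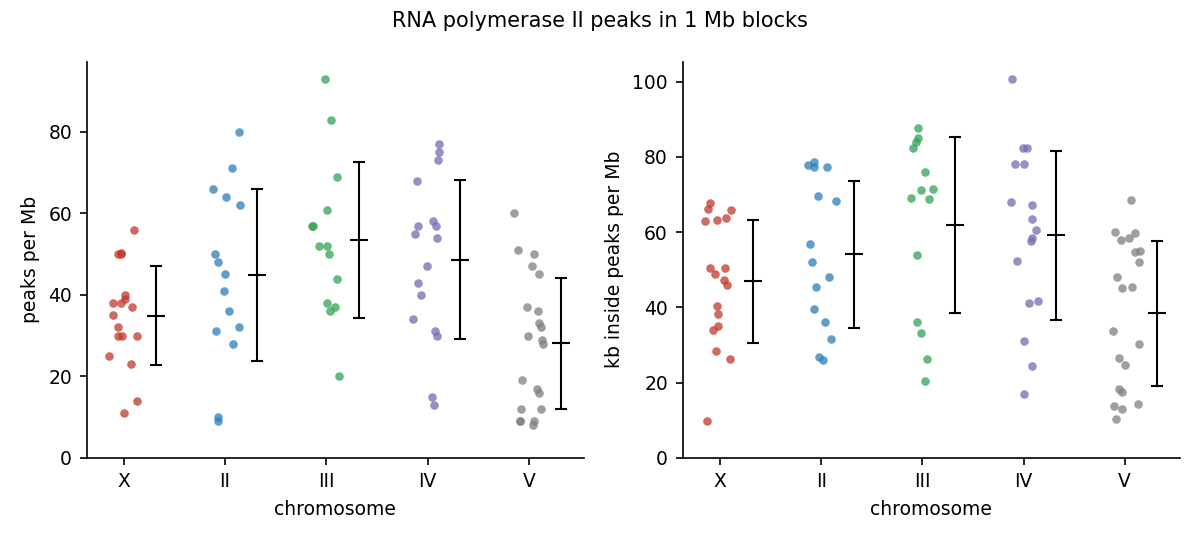
Peaks per Mb (left) and kb inside peaks per Mb (right) in blocks of 1 Mb, by chromosome. Each point is 1 block, and the black mark beside the points is the mean with its SD over blocks. The 18 blocks of X average 34.9 peaks per Mb, below the means of II, III and IV and above that of V.

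The profile along X had a low left end, a dense stretch left of the middle, a dip past the middle and a mostly level right side with a denser last block. The first 2 Mb held 11 and 14 peaks. Counts then were 35 from 2 to 3 Mb and 30 from 3 to 4 Mb. The 3 densest full blocks followed each other, with 50 peaks from 4 to 5 Mb (exact 95% Poisson interval 37.1 to 65.9), 50 from 5 to 6 Mb and 56 from 6 to 7 Mb (42.3 to 72.7), and together they held 25.6% of the peaks on X. The next 2 blocks held 38 and 40 peaks. From 9 to 10 Mb there were 25 peaks and from 10 to 11 Mb 23 (14.6 to 34.5), the sparsest block outside the left end. From 11 to 17 Mb the blocks held between 30 and 39 peaks. The last, incomplete block of 0.637 Mb held 32 peaks (21.9 to 45.2 for the count). That comes to 50.2 per Mb, about the density of the stretch from 4 to 6 Mb. This block is short and ends at the last peak, and its density was not tested against that of other blocks.

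Covered sequence followed the number of peaks only in part. The block with most peaks, from 6 to 7 Mb, also had most sequence inside peaks, 67.6 kb. The block from 11 to 12 Mb came next with 66.2 kb in 39 peaks. The blocks from 7 to 8 Mb and from 8 to 9 Mb had 63.3 and 63.1 kb in 38 and 40 peaks, about the 63.7 kb that 50 peaks gave from 5 to 6 Mb. Peak width differed between these places: the median was 497 bp from 6 to 7 Mb, 947 bp from 7 to 8 Mb and 869 bp from 8 to 9 Mb. Short peaks prevailed from 3 to 4 Mb and from 16 to 17 Mb, where the medians were 335 and 342 bp and 23.3 and 18.4% of the peaks reached 1 kb. Wide ones prevailed from 1 to 2 Mb and from 15 to 16 Mb, with medians of 1384 and 1150 bp. Across the 18 blocks Spearman's rho between peak number and covered base pairs was 0.81, a description of blocks that share the same list.

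The left end of X held most of its longest gaps. The longest stretch without a listed peak on the chromosome, 505 kb, ran from 1525584 to 2030551 (coordinates on WormBase build WS180). The next were 362 kb from 499323 to 861351 and 276 kb from 48302 to 324770. The fourth, 225 kb, ran from 10782211 to 11007353, in the dip past the middle, and the fifth, 217 kb, from 1118253 to 1335134. Of the 5 longest gaps 4 thus lay in the first 11.5% of the chromosome, where they made up 67.0% of the sequence, with 25 peaks in the remainder. The first 2 blocks had 12.5 peaks per Mb (exact Poisson 8.09 to 18.5), against 37.4 per Mb in the other 16 blocks of X. The first 2 Mb of the references held 20.0 peaks per Mb on II, 36.5 on III, 49.5 on IV and 17.5 on V, so sparse left ends also occurred on II and V. No left end was tested against another. At the right end X was not sparse: the last 2 Mb up to its last peak held 72 peaks, or 36 per Mb, where II had 53, III 51.5, IV 23 and V 19.5 per Mb.

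Counts per block of 1 Mb varied less on X than on II, IV and V, and about as much as on III relative to their mean. The ratio of variance to mean of the counts per block, which is 1 for independent peaks at a constant density, was 3.97 on X, against 10.03 on II, 6.99 on III, 7.90 on IV and 9.34 on V. The coefficient of variation, which allows for the lower mean of X, was 0.342 on X, 0.473 on II, 0.365 on III, 0.403 on IV and 0.579 on V. Without its first 2 blocks X had a ratio of 2.28, with counts from 23 to 56, and without theirs the references had 7.92 on II, 6.88 on III, 8.04 on IV and 9.52 on V. Each chromosome is a single case, so these are descriptions with no test. In smaller blocks the coefficient of X lay above that of III, at 0.435 on X and 0.411 on III in blocks of 500 kb and at 0.527 on X and 0.493 on III in blocks of 250 kb. In blocks of 100 kb it was 0.751 on X, 0.808 on II, 0.693 on III, 0.767 on IV and 0.942 on V. At that scale 21 of 176 blocks of X were without a peak (11.9%), as were 11.8% on II, 4.35% on III, 10.9% on IV and 22.1% on V.

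The running share of peaks was compared with the share of length. Walking from the left end, the share of the peaks passed never differed from the share of length passed by more than 8.31 percentage points on X, at 21.4% of the length, where peaks lagged. The largest departure was 17.4 points on II, 10.1 on III, 11.6 on IV and 13.7 on V. When the length was cut into 10 equal parts, shares on X ran from 4.10% in the first (exact binomial 2.67 to 5.99) to 14.6% in the part from 30 to 40% (11.9 to 17.6). The part from 50 to 60%, just past the middle, held 6.72% of the peaks on X (4.87 to 9.01), the second lowest share of the 10. That part held 14.7% on II, 15.4% on III, 13.9% on IV and 19.5% on V, and it was the fullest of the 10 on III and V. Peaks of at least 1 kb followed a like course over most of X. Their share was 4.88% in the first part, 15.04% in the part from 40 to 50% and 6.91% in the part from 50 to 60%. At the right end the courses differed. The part from 80 to 90% held 13.4% of these wide peaks and 10% of all peaks on X. The part from 90 to 100% held 7.32% of the wide and 11.5% of all.

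**Figure D2:**
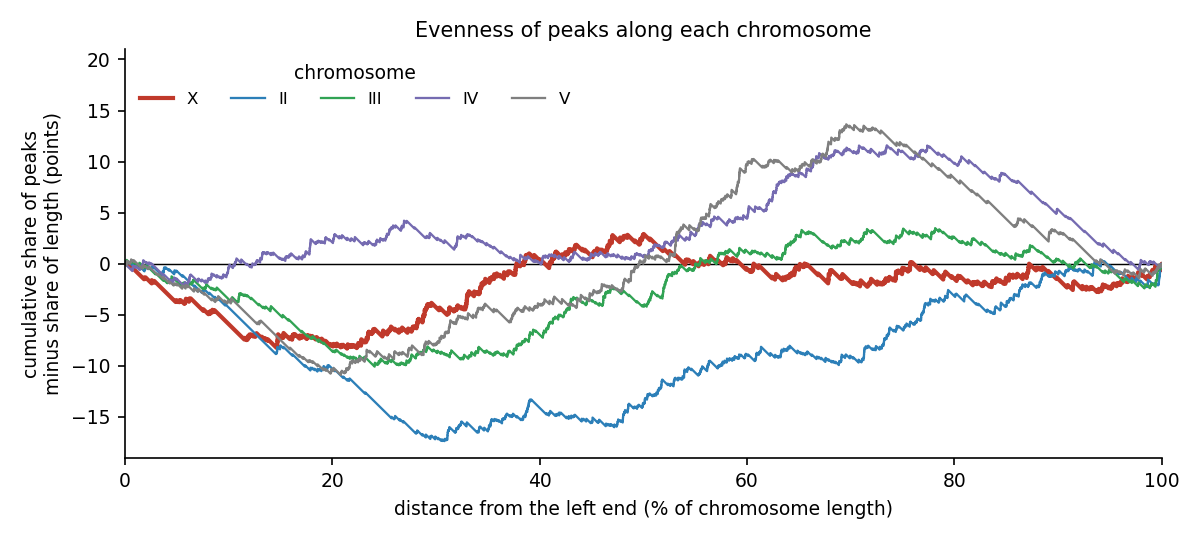
Cumulative share of a chromosome's peaks minus the share of its length, in percentage points, against distance from the left end in percent of length. A horizontal line at 0 is perfect evenness. X (thick line) sinks to 8.31 points below 0 at 21.4% of the length and stays near 0 beyond the middle, while II sinks to 17.4 points below.

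The peaks of X had the highest median width of the 5 chromosomes, and the share that reached 1 kb was higher than on III. Their median was 720 bp with quartiles of 225 and 1733 bp, and widths ran from 1 to 12288 bp. The median was 570 bp on V, but V had the higher upper quartile, 1775 bp. Its mean was also higher, 1367 bp against 1346 bp on X. These summaries were not tested. At least 1 kb was reached by 40.3% of the peaks on X, against 34.05% on II, 30.3% on III, 37.1% on IV and 37.3% on V. In a quasi-binomial model over blocks the odds of reaching 1 kb were 1.55 times those on III (1.18 to 2.04, adjusted p = 0.0259, n = 18 and 14 blocks). Against II the odds ratio was 1.32 (0.993 to 1.75, adjusted p = 0.163), against IV 1.14 (0.869 to 1.49, adjusted p = 0.397) and against V 1.13 (0.872 to 1.48, adjusted p = 0.397), with n = 18 blocks on X. In the same binomial model the call against III was lost with a limit of 2 kb (1.20, adjusted p = 0.358), after merging of peaks within 500 bp (1.56, adjusted p = 0.0653) and without the first 2 blocks of X (1.53, adjusted p = 0.0523).

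The widths were then divided into 7 classes. Peaks of 800 to 1599 bp were the largest class of X, with 117 peaks or 19.2% (exact binomial 16.1 to 22.5). The same class held 14.7% on II, 11.7% on III (9.47 to 14.2), 16.1% on IV and 15.2% on V. Peaks of 200 to 399 bp made up 13.9% on X (11.3 to 16.9), against 18.5% on II, 18.1% on III, 16.5% on IV and 16.8% on V. Most of these intervals overlap, and classes were not tested. At the short end X had 84 peaks of less than 100 bp (13.8%), among them 2 of a single base pair. At the wide end 76 peaks of X reached 3200 bp (12.5%), or 4.31 per Mb (exact Poisson 3.40 to 5.39), against 4.66 per Mb on II, 5.52 on III, 4.81 on IV and 3.45 on V. These 76 peaks held 46.5% of the sequence inside peaks on X, and the 137 peaks under 200 bp held 1.43%.

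**Figure D3:**
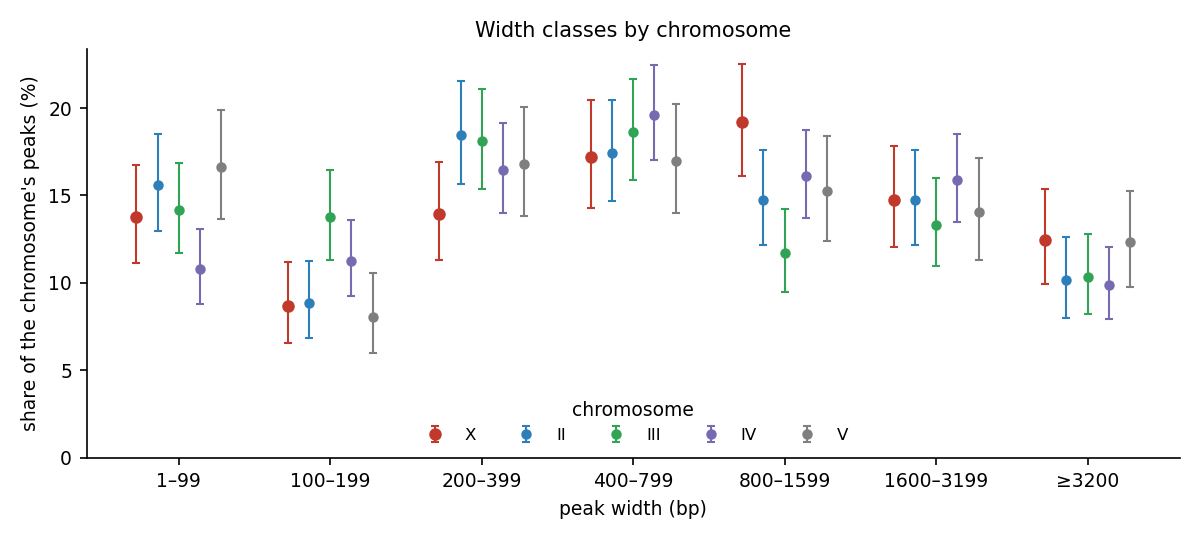
Share of each chromosome's peaks in 7 width classes, with exact 95% binomial intervals that cover counting error only. On X the fullest class is 800 to 1599 bp, at 19.2%, where III has 11.7%.

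The 10 widest peaks of X lay mostly right of the middle. The widest spanned 12288 bp at 16790802 to 16803089, and the second 11682 bp at 8015383 to 8027064. The third, of 9401 bp at 5112041 to 5121441, lay inside the dense stretch. Then came 8676 bp at 11477550 to 11486225, 8584 bp at 15272107 to 15280690, 8133 bp at 14815258 to 14823390 and 8055 bp at 15606051 to 15614105. The last 3 were 7963 bp at 17622056 to 17630018, near the right end of the listed span, 7504 bp at 9548817 to 9556320 and 7239 bp at 11060428 to 11067666. Left of the middle lay 2 of the 10. In the whole list these peaks ranked from 4 to 49 by width.

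The 10 peaks of X with the lowest q were another set for the most part. The lowest q on X, 1.11e-258, belonged to a peak of 3742 bp at 11965549 to 11969290, which ranked 28 by q among all listed peaks. It was followed by peaks at 13104891 to 13109213 (q 4.48e-236) and at 8015383 to 8027064 (q 3.12e-235), the second widest of X. The widest peak of X came next with 4.75e-207. Ranks 5 to 10 on X ran from 2.60e-189 to 9.06e-158. They lay at 4523336 to 4526935, 13143131 to 13146431, 1443024 to 1448640, 6088673 to 6093670, 2968036 to 2973123 and 4969107 to 4972427. Of the 10, 6 lay left of the middle. One of them, at 1443024 to 1448640, stood in the sparse left end between the fifth longest gap and the longest gap. The lists share 2 peaks, and some wide peaks had modest q values: the ninth widest, of 7504 bp, had 9.89e-16 and ranked 119 by q on X.

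Ranked together with the peaks of II, III, IV and V, X held 12% of the 50 lowest q values and 20.0% of the 50 widest peaks. X makes up 20.8% of the length and 17.5% of the peaks of these 5 chromosomes. Of the 50 peaks with the lowest q it held 6 (exact binomial interval of the share 4.53 to 24.3%), and of the best 500 it held 83, or 16.6% (13.4 to 20.2). Of the 50 widest it held 10 (10.03 to 33.7%), and of the 500 widest 100, or 20.0% (16.6 to 23.8). The intervals for the top 50 are broad and hold both the share of length and the share of peaks. The products of q and rank imply 103 ranks before the first row of the list, which is an inference. Regions at those ranks would have the lowest q values and were not analysed here. Statements on the lowest q thus concern listed peaks only. If every one of those regions lay on X its density would be 40.4 peaks per Mb, against 34.6 as listed. If instead all lay on III, its density would be 60.8 against 53.4.

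The authors' q values fell with width on X as on the references, but at a given width the peaks of X tended to have the weaker q. Width and −log10 q had a Spearman's rho of 0.65 over the 610 peaks of X, 0.63 on II, 0.60 on III, 0.66 on IV and 0.61 on V, a description across peaks of 1 list. The 153 peaks of X with the lowest q (up to 8.04e-11) had a median width of 2907 bp and held 61.5% of the covered sequence of X. The 153 with the highest q (from 0.00196) had a median of 260 bp, and 13.1% of them reached 1 kb. Among peaks of 1600 to 3199 bp the median −log10 q was 12.05 on X, against 17.9 on II, 17.2 on III, 16.7 on IV and 15.998 on V. Among those of 800 to 1599 bp it was 5.43 on X, against 8.68 on II, 5.55 on III, 6.52 on IV and 6.64 on V. At 400 to 799 bp X and V were nearly level, with 3.68 and 3.70. X had the lowest median of the 5 chromosomes in 5 of the 7 classes. The exceptions were peaks under 100 bp, with 3.03 on X and 3.02 on IV, and peaks of 3200 bp and over, with 49.2 on X, 47.0 on IV and 45.5 on V. Quartiles overlap widely in every class, and the differences were not tested. A q value depends on the reads of both the ChIP and the input library, and neither is in the list.

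**Figure D4:**
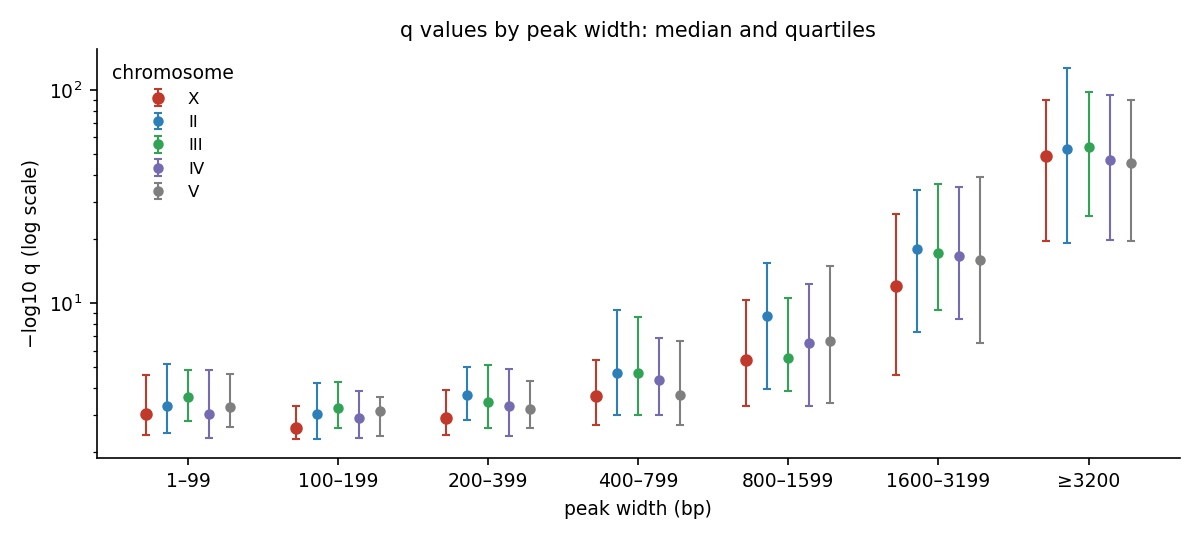
Median −log10 q by width class and chromosome on a log axis, with bars from the lower to the upper quartile of peaks. The median of X is the lowest of the 5 in the classes from 100 to 3199 bp, for example 12.05 at 1600 to 3199 bp. At 400 to 799 bp X (3.68) and V (3.70) are nearly level. The bars overlap.

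Neighbouring peaks on X were separated by gaps of very different lengths. No pair of neighbours lay closer than 200 bp on X, nor on any of the references, and the shortest gap of the whole list was 200 bp. The 609 gaps of X had a median of 10417 bp, with quartiles of 1301 and 35345 bp. The median gap was 6492 bp on II, 6074 bp on III, 4594 bp on IV and 10932 bp on V. Gaps of 100 kb or more numbered 37 on X and took 33.6% of its length, against 27.0% on II, 17.3% on III, 26.7% on IV and 43.6% on V. The coefficient of variation of the gaps, which is about 1 for independent peaks at a constant density, was 1.63 on X, 2.10 on II, 1.55 on III, 1.72 on IV and 1.81 on V. Successive gaps on X were nearly unrelated in length (Spearman's rho 0.04, against 0.15 on II, 0.14 on III, 0.09 on IV and 0.09 on V), as were the widths of neighbouring peaks (rho 0.08 on X).

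**Figure D5:**
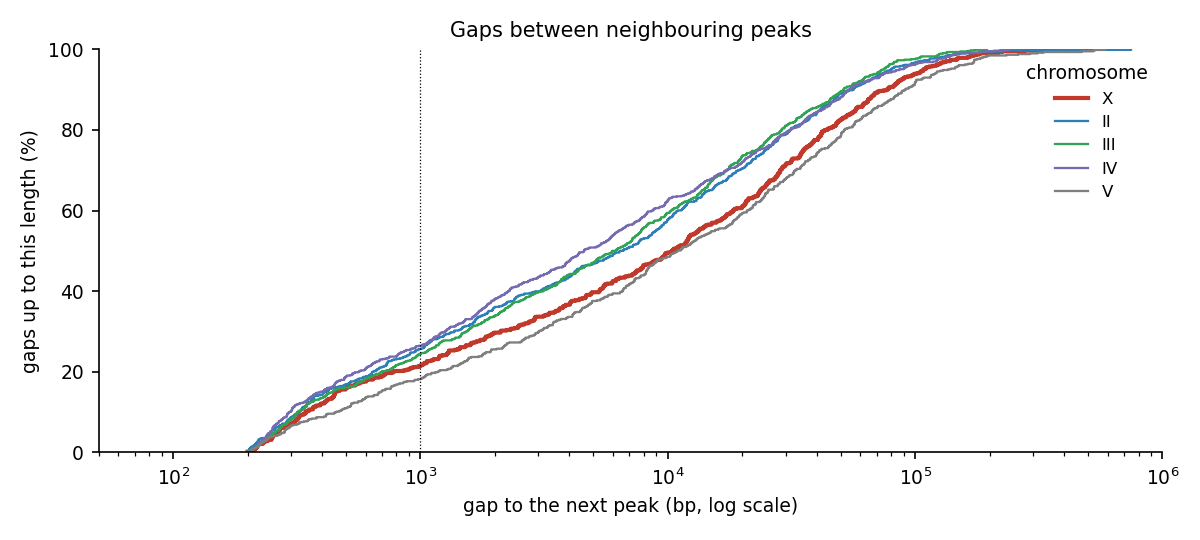
Share of the gaps between neighbouring peaks that are no longer than the length on the x axis (bp, log scale), by chromosome, with a dotted line at 1 kb. X (thick line) runs with V at the median, 10417 bp against 10932 bp, to the right of II, III and IV.

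Close neighbours formed small clusters. With clusters defined as runs of peaks with gaps of at most 1 kb, X had 96 clusters, which held 227 of its 610 peaks, or 37.2% (exact binomial 33.4 to 41.2). The share was 41.6% on II, 40.3% on III, 43.8% on IV and 32.5% on V. In the quasi-binomial model over blocks the odds ratio of X was 0.874 against II (0.627 to 1.22, adjusted p = 0.459), 0.879 against III (0.569 to 1.36, adjusted p = 0.550), 0.747 against IV (0.526 to 1.06, adjusted p = 0.196) and 1.23 against V (0.873 to 1.73, adjusted p = 0.337). None passed 0.05, and the intervals allow both more and less clustering on X than on each reference. The odds ratios lay below 1 against II, III and IV, which had more peaks per Mb than X. Against V, which had fewer, the odds ratio lay above 1. The model did not adjust for density, and its part in these ratios was not tested. Clusters of X were mostly pairs, 72 of 96 (75%), where pairs made up 64.3% of clusters on II, 62.4% on III, 64.9% on IV and 77.4% on V. Another 16 clusters of X had 3 peaks, 6 had 4 and 2 had 5 or more. Counting each cluster and each lone peak once, X had 27.2 sites per Mb, against 34.1 on II, 40.4 on III, 35.8 on IV and 22.9 on V.

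The largest cluster of X had 6 peaks over 10025 bp at 5811865 to 5821889, inside the dense stretch. The second had 5 peaks over 7481 bp at 13353368 to 13360848. Of the clusters with 4 peaks the longest spanned 16042 bp at 12503403 to 12519444, with 94.7% of its sequence inside peaks. The next spanned 6217 bp at 11965549 to 11971765 and begins with the peak of lowest q on X. The fifth of the named clusters spanned 5868 bp at 16123454 to 16129321. In the cluster of 6 peaks the lowest q was 1.65e-06, so many close peaks did not mean low q values there.

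Peaks in clusters were wider than lone peaks. On X the median width was 902 bp in clusters and 488 bp outside them, and the same order held on II (684 and 450 bp), III (726 and 322 bp), IV (834 and 445 bp) and V (870 and 428 bp). A peak of at least 1 kb was present in 70 of the 96 clusters of X (72.9%), and 32 clusters had at least 2. By width class, the share of X peaks with a neighbour within 1 kb was 16.7% under 100 bp, 28.3% at 100 to 199 bp, 31.8% at 200 to 399 bp, 41.9% at 400 to 799 bp and 49.6% at 800 to 1599 bp. It was then 44.4% at 1600 to 3199 bp and 38.2% from 3200 bp up. Of the 84 peaks of X under 100 bp, 14 had such a neighbour, and the shares of that class were 33.03% on II, 28.8% on III, 25% on IV and 20.6% on V. These shares were not tested by class. Peaks with low q on X were not confined to clusters: 41.2% of the 153 with the lowest q had a neighbour within 1 kb, against 31.4% of the 153 with the highest.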

How the data were processed

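Chromatin was cross-linked with formaldehyde and sonicated, per the labels' protocols. The antibody follows the sample labels (8WG16), although the protocol text common to all samples describes embryos and a serum against GFP. The deposited list names PeakSeq, which compares ChIP reads with input, as its caller, and uses WormBase WS180 coordinates, per the file headers. Each q-value is the authors' own, below 0.01, and only ranks and describes peaks. Aligner, filters, caller version and how replicates were joined are not stated in the sources used here. The gene table at hand is of another assembly, so no peak was matched to a gene.

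Length was taken from position 1 to the end of a chromosome's last peak. Peaks were assigned by midpoint to blocks of 1 Mb, and a last block under 500 kb was dropped. This removed the right ends of II and IV, while X, III and V kept their shorter last blocks. Over the full span II had 45.9 and IV 48.7 peaks per Mb, against block means of 44.9 and 48.6. In the ratio of variance to mean and the coefficient of variation, shorter last blocks entered as raw counts. X was compared with II, III, IV and V, each alone, by quasi-Poisson (counts, base pairs) and quasi-binomial (shares) models over blocks, two-sided. They used Pearson dispersion and Benjamini-Hochberg adjustment over 20 comparisons (5 measures, 4 references). Both models were tested on simulated data. The simulated blocks were independent and drawn with the same setting of spread for both chromosomes. They therefore cover neither the likeness of neighbouring blocks nor a spread that differs between X and a reference. Poisson and binomial intervals are exact, at 95%, and cover counting error only. The members, measures and lists were chosen with earlier results of these data known. Named on X were the 10 widest peaks, the 10 with the lowest q, the 5 clusters with most peaks, the 5 longest gaps and the 3 densest and 3 sparsest blocks; other blocks are given for the profile. Alternatives were blocks of 500 kb (for evenness also 250 kb), a dispersion shared by 5 chromosomes, the best 50% by q, merging within 500 bp, omission of peaks under 100 bp or of the widest 1%, other limits of width and distance, and spans from the first peak. Python 3.11.15, statsmodels 0.14.6, scipy 1.17.1 and pandas 2.3.3 were used.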

Additional observations from a re-analysis of the deposited data

How the results depend on the processing

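No paired analysis was possible because the list holds no value per replicate, and for the same reason no replicate could be left out. The omission of the first 2 blocks of X was chosen after seeing the data. Of 144 ratios recomputed under alternatives, 133 kept their direction and their side of the adjusted threshold. Most of those belong to comparisons that had not passed to begin with. Of the comparisons that had passed, density against III lost its call under 2 of 7 alternatives. The share of peaks of at least 1 kb against III lost its call under 3 of 8. The density ratio of X to III, 0.648, ranged from 0.601 to 0.701 and missed the threshold of the block model (n = 18 blocks of X, or 16) with a shared dispersion (0.648, adjusted p = 0.0540) and without the first 2 blocks of X (0.701, adjusted p = 0.0523). That of X to IV passed in blocks of 500 kb (0.705, adjusted p = 0.0130, n = 35 on X) and in the best 50% by q (0.639, adjusted p = 0.0407). The odds ratio of peaks of at least 1 kb on X to III, 1.55, missed the threshold of the quasi-binomial model after merging within 500 bp (1.56, adjusted p = 0.0653), with a limit of 2 kb (1.20) and without the first 2 blocks of X (1.53). The odds ratio of a neighbour within 1 kb, never past the threshold, turned against V after merging (0.791), against II without peaks under 100 bp (1.01) and at a distance of 500 bp (1.01), and against III at 500 bp (1.02). The density of wide peaks (20 values) and covered base pairs (28 values) changed no direction or call. The ratio of variance to mean on X, 3.97, was 3.26 in blocks of 500 kb, 2.39 in blocks of 250 kb, 2.89 after merging and 1.85 for peaks of at least 1 kb, where fewer peaks remain per block; there II had 2.82, III 2.55, IV 2.69 and V 3.14. No cause of these changes was tested. Depth is unknown, so what it limits could not be assessed.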
